A study of Hordeum vulgare with 12 samples.

Results

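The genes *SMR3* (HORVU.MOREX.r3.4HG0414340, chromosome 4H) and *FBL17* (HORVU.MOREX.r3.5HG0433490, chromosome 5H) are described here as a cell cycle brake and its counterpart. They are 2 of the 81687 genes in the count table, were chosen by identifier and have 1 row each. The study had already named both for their responses in these same libraries, so the direction of a change reported for either is not independent evidence. RNA came from dissected root tips of seedlings grown for 7 days on solid medium and then kept in liquid medium for 6 h. Mock-treated wild type (WT, *cv.* Sebastian) and the mock-treated mutant *hvatr.g* had 0 µg/ml zeocin in that medium, and the zeocin-treated plants of both genotypes had 500 µg/ml. Each of the 4 groups held 3 libraries. Zeocin is an antibiotic of the bleomycin family that breaks DNA strands. The *hvatr.g* allele lies in *ATR*, a kinase that signals DNA damage and stalled replication, and comes from a TILLING population of mutagenised plants. It is a single line, so effects of *ATR* and of any other mutation it carries cannot be told apart.

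SMR3 belongs to the SIAMESE-RELATED proteins, which in Arabidopsis bind and inhibit cyclin-dependent kinases (CDKs), hold cells back from mitosis and favour endoreduplication. Several of their genes are targets of SOG1, the transcription factor at the centre of the plant DNA damage response. FBL17 is the F-box subunit of an SCF ubiquitin ligase that in Arabidopsis marks another class of CDK inhibitors, the KIP-RELATED PROTEINs, for degradation and so lets S phase proceed. The transcript of *FBL17* is under E2F control there. In Arabidopsis one product of the pair thus inhibits CDKs and the other removes inhibitors of CDKs, but at different steps of the cell cycle.

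Library totals lay between 36100439 and 74699245 counts, and the mock-treated *hvatr.g* libraries, at 41255896 to 74699245 counts, were on the whole the deepest. Levels are given as CPM, which are counts scaled to the TMM-adjusted library size, and differences are log2 fold changes with their standard error (SE) from edgeR's quasi-likelihood test over 26039 genes with Benjamini-Hochberg adjustment of p. A gene counts as called when the adjusted p is below 0.05 and the log2 fold change is 1 or more in size. With 3 libraries a group, no exact two-sided permutation test of a single gene reaches a p below 0.1. Groups whose libraries do not overlap are therefore only described, and the share of all tested genes that separate in this way was not counted. The model's p sets a difference against the spread between these libraries, estimated in part from the other genes. For the mutated gene, *ATR* (HORVU.MOREX.r3.7HG0748510), the level without zeocin was 12.9 ± 2.81 CPM in WT against 16.4 ± 3.82 CPM in the mutant (mean ± SD, n = 3), with a log2 fold change of 0.35 (SE 0.21, edgeR adjusted p = 0.299), so its transcript level does not check the genotype labels. Markers of root and shoot were not examined here, so the tissue was not checked. Of 16 listed cyclins and CDKs, 15 had enough counts to test. In RNA of a whole root tip, fewer cells of a type and less RNA per cell cannot be told apart.

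*SMR3* was low in all mock-treated libraries and high in all zeocin-treated ones, in both genotypes. Mock-treated WT gave 460, 341 and 572 counts, or 11.1, 9.61 and 15.3 CPM. After zeocin the WT libraries gave 2492, 2794 and 2504 counts, or 69.9, 77.0 and 63.4 CPM. The lowest treated library thus lay at 63.4 CPM and the highest untreated one at 15.3 CPM, with no overlap. *SMR3* rose 5.84-fold in WT (log2 fold change 2.55, SE 0.23, 95% interval 2.05 to 3.04, edgeR adjusted p = 7.75e-05). In this comparison 1.12% of all tested genes were called higher, and *SMR3* held rank 36 by p and rank 173 by size of the rise.

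In *hvatr.g* the mock-treated libraries gave 799, 1102 and 634 *SMR3* counts, or 10.6, 19.7 and 15.2 CPM. Zeocin-treated *hvatr.g* gave 4657, 3168 and 4270 counts, or 91.7, 81.9 and 108 CPM. All 3 treated libraries were above all 3 untreated ones here too. The rise was 6.20-fold (log2 fold change 2.63, SE 0.23, 95% interval 2.14 to 3.13, edgeR adjusted p = 2.74e-05), in a comparison that called 1.29% of tested genes higher. *SMR3* held rank 67 by p and rank 112 by size among them. Its call held in both genotypes under every alternative run, with log2 fold changes of 2.41 to 2.76 in WT and 2.43 to 2.89 in *hvatr.g* when 1 library was left out.

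*FBL17* moved the other way, and its response was smaller than that of *SMR3* in each genotype. Mock-treated WT gave 1213, 1085 and 1158 counts, or 29.3, 30.6 and 30.9 CPM, the tightest group of either gene with a coefficient of variation of 2.89%. After zeocin the WT libraries gave 574, 673 and 730 counts, or 16.1, 18.6 and 18.5 CPM. Each treated library was below each untreated one. The log2 fold change was -0.77 (SE 0.18, 95% interval -1.17 to -0.38, edgeR adjusted p = 0.0395), which passed the threshold on p but not the one on fold change, so *FBL17* was not among the 0.902% of genes called lower in WT. On p alone, 823 of the 26039 tested genes passed in WT, in either direction. By p *FBL17* held rank 734 and by size of the fall rank 1129. With the replicate number as a block within each genotype, the log2 fold change was again -0.77 (edgeR adjusted p = 0.00675). Without that block, the adjusted p did not hold when libraries were left out. It was 0.05 or above in 8 of 12 such fits, those without any 1 of the 6 WT libraries, without mock-treated *hvatr.g* replicate 2 or without zeocin-treated *hvatr.g* replicate 1, and ran up to 0.19, while the log2 fold change stayed between -0.80 and -0.71.

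The 3 mock-treated *hvatr.g* libraries gave 2147, 1419 and 834 *FBL17* counts, or 28.5, 25.3 and 20.0 CPM. After zeocin there were 439, 470 and 281 counts, or 8.64, 12.2 and 7.12 CPM. Again the groups did not overlap, and the highest treated library, at 12.2 CPM, was also below every WT library. *FBL17* fell 2.65-fold (log2 fold change -1.40, SE 0.18, 95% interval -1.81 to -1.0, edgeR adjusted p = 0.000421) and was called, in a comparison with 2.15% of tested genes called lower. By p it held rank 384 and by size of the fall rank 572, so many genes responded more strongly. Within the mock-treated mutant group, the 3 *FBL17* levels were in the order of the library totals, which were 74699245, 54801716 and 41255896 counts. The part of depth in this spread was not tested. Without replicate 1, 2 or 3 of that group the log2 fold change was -1.29, -1.36 or -1.53. Over all fits without 1 library it ran from -1.64 to -1.25, and the call held.

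**Figure D1:**
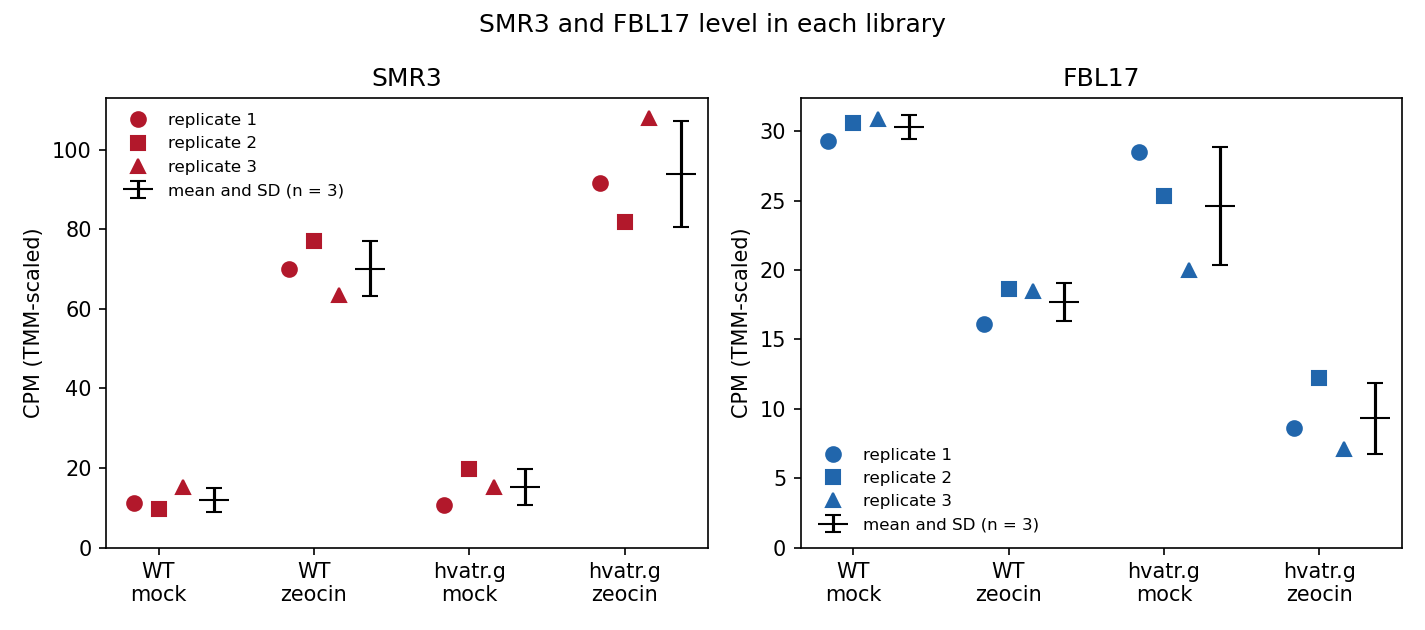
CPM (TMM-scaled, linear axis from 0) of *SMR3* (left) and *FBL17* (right) in each of the 12 libraries, with the mean and SD of the 3 libraries of each group as black bars and the replicate number as marker shape. *SMR3* lies at 9.61 to 19.7 CPM in mock-treated and 63.4 to 108 CPM in zeocin-treated libraries, while *FBL17* steps down from 30.3 CPM in mock-treated WT to 9.31 CPM in zeocin-treated *hvatr.g* on average.

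The order of the group means of *SMR3* was mock-treated WT (12.0 ± 2.94 CPM), mock-treated *hvatr.g* (15.2 ± 4.53 CPM), zeocin-treated WT (70.1 ± 6.80 CPM) and zeocin-treated *hvatr.g* (93.9 ± 13.3 CPM), each as mean ± SD with n = 3. The mock-treated neighbours overlapped. The zeocin-treated neighbours did not, with 77.0 CPM as the highest WT and 81.9 CPM as the lowest mutant library, but the gap was smaller than either SD. For *FBL17* the order was zeocin-treated *hvatr.g* (9.31 ± 2.58 CPM), zeocin-treated WT (17.7 ± 1.40 CPM), mock-treated *hvatr.g* (24.6 ± 4.27 CPM) and mock-treated WT (30.3 ± 0.875 CPM). No neighbours in that order overlapped. The narrowest gaps were those from 18.6 to 20.0 CPM and from 28.5 to 29.3 CPM.

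Under mock treatment neither gene differed between the genotypes by the test. *SMR3* had a log2 fold change of 0.34 in *hvatr.g* against WT (SE 0.22, 95% interval -0.14 to 0.81, edgeR adjusted p = 0.352). *FBL17* was lower in each of the 3 mutant libraries than in each WT library, with a log2 fold change of -0.30 (SE 0.18, 95% interval -0.69 to 0.09, edgeR adjusted p = 0.31). The order of these libraries is a description, since the test did not pass. In this comparison 3.87% of tested genes were called higher and 4.58% lower. Both intervals include 0 and also differences of more than 0.6 in size, so neither equality nor a moderate difference between untreated genotypes was shown at this depth and number of libraries.

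Under zeocin treatment the genotypes differed in *FBL17* but not, by the test, in *SMR3*. The log2 fold change of *FBL17* in zeocin-treated *hvatr.g* against zeocin-treated WT was -0.93 (SE 0.18, 95% interval -1.33 to -0.53, edgeR adjusted p = 0.00579). This passed the threshold on p and fell just short of the one on fold change, so the gene was not called, in a comparison with 5.56% of tested genes called lower. On p alone, 4321 of the 26039 tested genes passed here, in either direction. By p *FBL17* held rank 1277 and by size of the fall rank 2392. Without zeocin-treated *hvatr.g* replicate 2, the mutant library with the highest *FBL17* level after zeocin, the log2 fold change was -1.17 and the gene was called. *SMR3* was higher in all 3 zeocin-treated mutant libraries than in all 3 zeocin-treated WT libraries, but the log2 fold change of 0.42 (SE 0.21, 95% interval -0.04 to 0.89, edgeR adjusted p = 0.209) did not pass, where 3.46% of tested genes were called higher. The 4 comparisons share libraries: each mock-treated and each zeocin-treated group enters a treatment and a genotype comparison.

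Whether the response to zeocin itself differed between the genotypes was tested as an interaction. The interaction of *SMR3* was 0.09 on the log2 scale (SE 0.31, 95% interval -0.58 to 0.75, edgeR adjusted p = 1). For *FBL17* it was -0.63 (SE 0.26, 95% interval -1.19 to -0.07, edgeR adjusted p = 1), a larger fall in *hvatr.g* whose interval lies below 0 but which did not survive adjustment over all genes. By edgeR 0 of the 26039 genes, or 0%, had an interaction with an adjusted p below 0.05, and 1120 had an unadjusted p below 0.05. DESeq2 gave 112 genes, limma-voom 1, and edgeR without a filter on low counts 33. *FBL17* was not among the called genes in any of these fits, and its smallest adjusted p over all alternatives was 0.28. That *FBL17* was called in the mutant and not in WT is therefore not evidence by itself that its response differed.

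**Figure D2:**
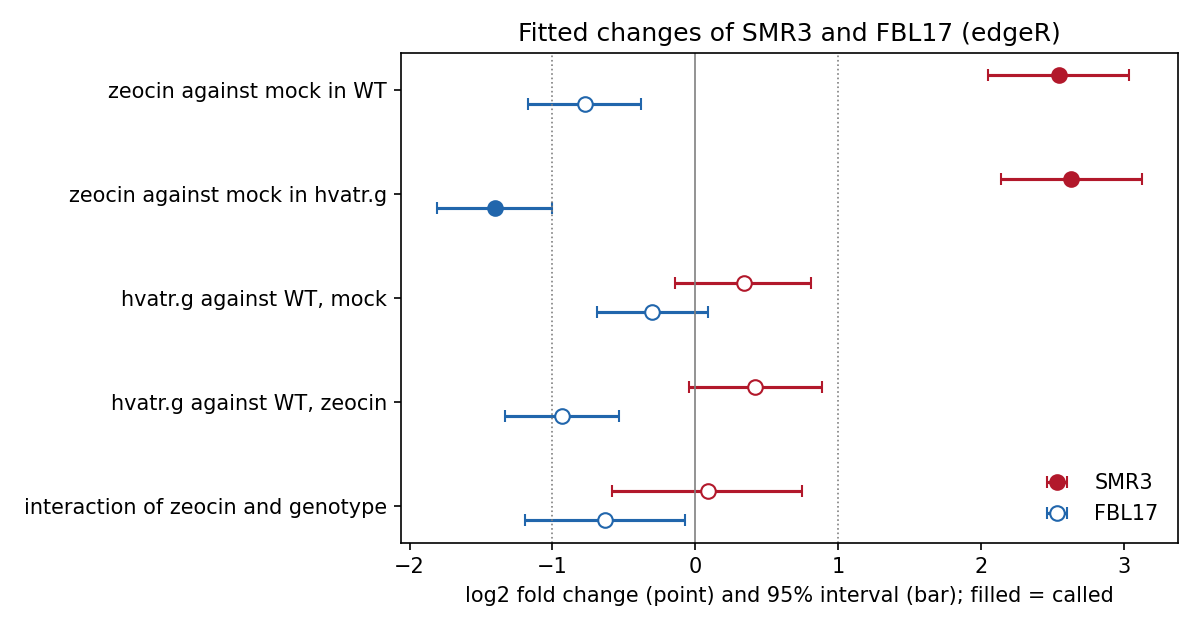
Fitted log2 fold changes (points) with 95% intervals (bars) of *SMR3* (red) and *FBL17* (blue) in the 4 comparisons and the interaction, with dotted lines at -1 and 1 and filled points for called changes. The *SMR3* intervals for zeocin lie between 2.05 and 3.13 in the 2 genotypes, and the *FBL17* point moves from -0.77 in WT to -1.40 in *hvatr.g*.

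The ratio of the *SMR3* count to the *FBL17* count within a library depends neither on depth nor on scaling. It is not per transcript length, so only its differences between libraries are read, and it was not tested because it is built from the chosen genes. Mock-treated WT gave ratios of 0.379, 0.314 and 0.494, and zeocin-treated WT gave 4.34, 4.15 and 3.43. Mock-treated *hvatr.g* gave 0.372, 0.777 and 0.760, and zeocin-treated *hvatr.g* gave 10.6, 6.74 and 15.2. All 6 untreated libraries had more *FBL17* than *SMR3* counts, and all 6 treated libraries had more *SMR3* than *FBL17* counts.

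On the log2 scale the mean ratio was -1.36 ± 0.33 in mock-treated WT and 1.98 ± 0.18 in zeocin-treated WT (mean ± SD, n = 3), a difference of 3.35 or 10.2-fold. It was -0.73 ± 0.60 in mock-treated and 3.36 ± 0.59 in zeocin-treated *hvatr.g*, a difference of 4.09 or 17.0-fold. The untreated genotypes overlapped, since mutant replicate 1 at -1.43 lay inside the WT range of -1.67 to -1.02 while the other 2 mutant libraries, at -0.36 and -0.40, lay above it. The treated genotypes did not overlap, with a highest WT value of 2.12 and a lowest mutant value of 2.75, and their means differed by 1.38 or 2.60-fold. The rise in the ratio with zeocin was 0.75 larger in *hvatr.g* than in WT, beside fitted interactions of 0.09 for *SMR3* and -0.63 for *FBL17*. Most of the shift in each genotype came from *SMR3*, whose log2 fold changes of 2.55 and 2.63 stand beside -0.77 and -1.40 for *FBL17*.

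Within zeocin-treated *hvatr.g*, the library with the most *SMR3* (replicate 3, 108 CPM) had the least *FBL17* (7.12 CPM), and the one with the least *SMR3* (replicate 2, 81.9 CPM) had the most *FBL17* (12.2 CPM). Zeocin-treated WT showed no such order, since replicate 2 had the highest level of both genes. With 3 libraries a group these orders are a description. The SD of the log2 ratio was 0.59 in zeocin-treated *hvatr.g* and 0.18 in zeocin-treated WT. The SD of 0.60 in mock-treated *hvatr.g* rested on replicate 1 at -1.43, since the other 2 libraries lay at -0.36 and -0.40.

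**Figure D3:**
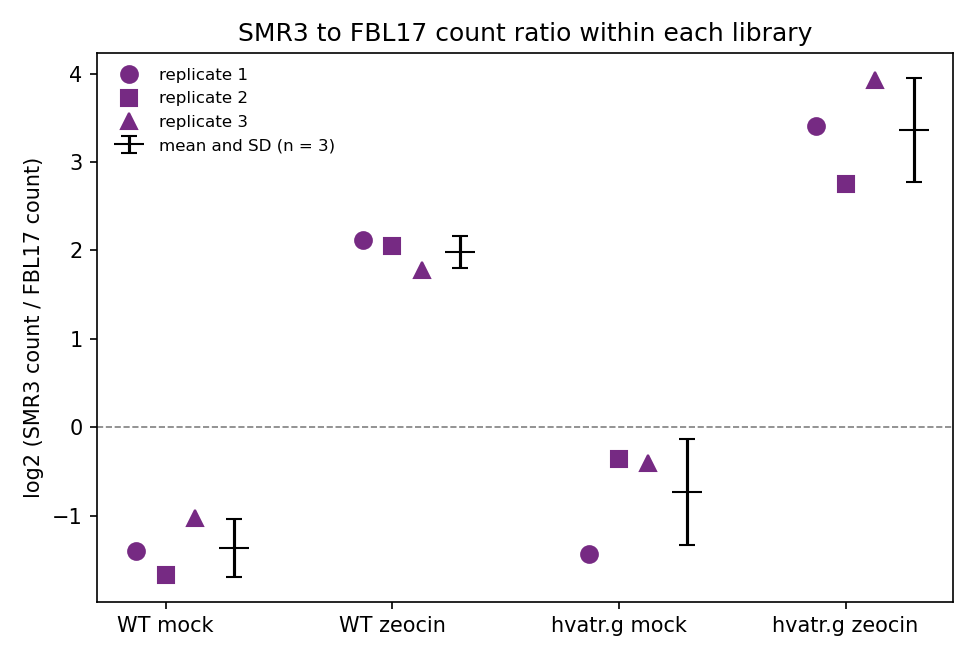
Log2 of the *SMR3* count over the *FBL17* count within each of the 12 libraries (points, marker shape by replicate number) with the group mean and SD (black bars), where 0 marks equal counts. Untreated libraries lie between -1.67 and -0.36, treated WT libraries between 1.78 and 2.12, and treated *hvatr.g* libraries between 2.75 and 3.93.

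Genes around the pair were taken from lists made from the study's catalogue of damage response genes and from the genes it names, some of which it had named for their response in these libraries. Among 8 damage signalling genes, 7 had enough counts to test. In each genotype 3 of the 7 were called higher with zeocin, beside 1.12% of all tested genes in WT and 1.29% in *hvatr.g*, and 0 lower. The list's median log2 fold change was 0.08 in WT and 0.06 in *hvatr.g*, beside 0 over all tested genes. The 3 were the *SOG1*-LIKE genes *SGL.A*, *SGL.C* and *SGL.D*, with log2 fold changes of 2.11, 3.7 and 1.32 in WT and 1.95, 2.14 and 1.51 in *hvatr.g* (edgeR adjusted p of 0.000973 or lower). *SGL.A* went from 4.26 ± 1.31 to 18.4 ± 5.57 CPM in WT and from 6.92 ± 0.464 to 26.7 ± 2.39 CPM in *hvatr.g*. *SOG1* itself had log2 fold changes of 0 in WT and 0.06 in *hvatr.g*, and *WEE1*, a kinase that inhibits CDKs by phosphorylation, 0.08 and -0.07, none passing the test. Between genotypes only *SGL.C* of this list was called, higher in *hvatr.g* under mock (log2 fold change 3.2) and under zeocin treatment (1.64), where 3.87% and 3.46% of all tested genes were called higher. It was at 0.144 ± 0.0848 CPM in mock-treated WT, close to the limit of detection, so its folds against that group are imprecise.

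Of the 15 cyclins and CDKs tested, 7 were called lower with zeocin in WT and 11 in *hvatr.g*, beside 0.902% and 2.15% of all tested genes. None of the 15 was called higher, and the median log2 fold changes of the list were -1.24 and -2.55, beside 0 over all tested genes. *CDKB1;2*, a mitotic CDK of the plant-specific B class, had log2 fold changes of -1.24 and -2.55 (edgeR adjusted p = 0.0165 and 7.08e-05). *CYCB1;2.C*, a B-type cyclin of mitosis, went from 54.2 ± 4.72 to 18.1 ± 4.86 CPM in WT and from 66.6 ± 11.0 to 7.21 ± 3.3 CPM in *hvatr.g*. *CYCA3;1.A*, of the A-type cyclins, had -0.79 in WT, which did not pass (edgeR adjusted p = 0.0749), and fell by 2.83 in *hvatr.g*. *CDC2.B*, *CDKD1;1*, *CYCH;1.A* and *CYCH;1.B* were called in neither genotype, with log2 fold changes between -0.18 and 0.17. Neighbouring cyclin genes of similar sequence may share reads, so single values among them are uncertain.

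Between the genotypes, 8 of the 15 were called lower in *hvatr.g* under zeocin, beside 5.56% of all tested genes, and 7 were not called, with a list median of -1.01. Under mock treatment 0 of 15 were called, beside 4.58% of all tested genes lower and 3.87% higher, with a list median of 0.29. The interaction had a median of -1.31 over the list, beside -0.02 over all tested genes, and 14 of the 15 lay below 0. It was called in 0 of 15 genes, but also in 0 of all 26039, so this count does not describe the list. The smallest edgeR adjusted p in the list was that of *CYCA3;1.A* at 0.149, which held rank 2 by p among all tested genes. The summed level of the 15 genes ran from 347 to 364 CPM in mock-treated WT, from 184 to 236 CPM in zeocin-treated WT, from 381 to 463 CPM in mock-treated *hvatr.g* and from 121 to 159 CPM in zeocin-treated *hvatr.g*. The summed level was thus higher in every mock-treated mutant library than in any mock-treated WT library, but the sum was not tested and 0 of the 15 genes were called there. The part of the number of dividing cells in the *FBL17* result was not tested.

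Of 17 S phase genes, 8 had enough counts to test. With zeocin 5 of the 8 were called lower in WT and 6 in *hvatr.g*, beside 0.902% and 2.15% of all tested genes, and 0 higher, with median log2 fold changes of -1.38 and -2.12. *ETG1*, a replisome factor and an E2F target in Arabidopsis as its name says, fell by 1.27 in WT and by 2.12 in *hvatr.g*. *FAS1*, a subunit of the chromatin assembly factor CAF-1, fell by 1.66 and 2.84, while *FAS2*, another subunit, had -0.47 and -0.61 and passed in neither. *PCNA2.I*, a sliding clamp of DNA polymerase, went from 24.4 ± 4.24 to 8.86 ± 0.976 CPM in WT and from 26.4 ± 4.55 to 6.09 ± 0.733 CPM in *hvatr.g*, whereas its homolog *PCNA2.D* had log2 fold changes of 0.01 and 0.14. Between the genotypes 0 of the 8 were called under zeocin, beside 5.56% of all tested genes lower and 3.46% higher. The list median was -0.68. *ETG1*, *CDC45.A*, *FAS1* and *PCNA2.I* were 1.76-, 1.99-, 1.99- and 1.46-fold lower in *hvatr.g* there. These passed the threshold on p (edgeR adjusted p of 0.0466 or lower) but not the one on fold change. The others did not pass on p, and 2 of the 8 lay above 0. On p alone, 4321 of all 26039 tested genes passed in this comparison, in either direction. Under mock treatment 0 of the 8 were called, with a median of 0.15, beside 4.58% of all tested genes lower and 3.87% higher.

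**Figure D4:**
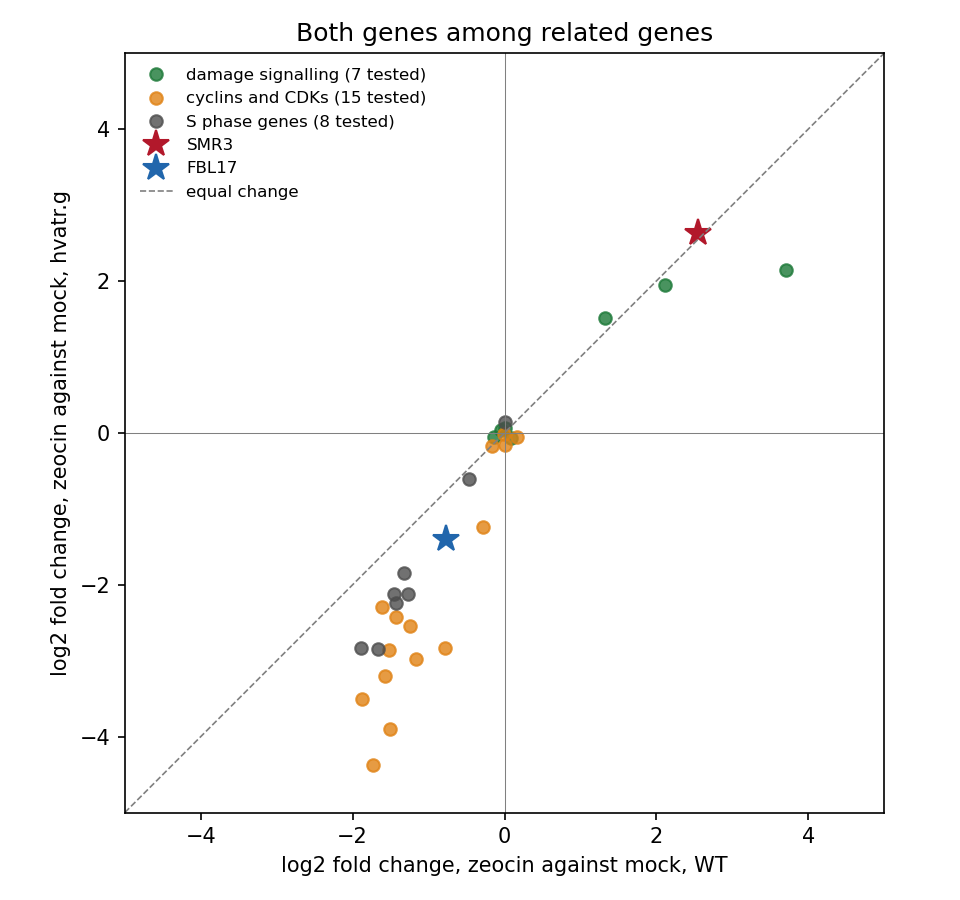
Log2 fold change with zeocin in WT (horizontal) against that in *hvatr.g* (vertical) for the 30 tested genes of the 3 lists (points, colour by list) and for *SMR3* and *FBL17* (stars), with a dashed line for equal change. *SMR3* at 2.55 and 2.63 lies beside that line, and *FBL17* at -0.77 and -1.40 lies below it with most cyclins, CDKs and S phase genes.

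The genes whose profile over the 12 libraries was most like that of each gene were found as those with the smallest root-mean-square (RMS) difference in log2 CPM after each gene was centred on its own mean. For *SMR3* the 4 reported were HORVU.MOREX.r3.3HG0289220, annotated in the study's tables as a putative ethylene-responsive transcription factor (RMS 0.232), HORVU.MOREX.r3.3HG0319710, a glutathione S-transferase (0.336), HORVU.MOREX.r3.1HG0086260, an NAD(P)-binding Rossmann-fold protein (0.371), and HORVU.MOREX.r3.7HG0738610, a putative signal peptidase I (0.380). The ethylene-responsive factor was at 6.38 ± 0.405 and 36.1 ± 4.92 CPM in mock- and zeocin-treated WT and at 7.19 ± 0.547 and 53.6 ± 7.74 CPM in *hvatr.g*. Each of these 4 was called higher with zeocin in both genotypes, beside 1.12% of all tested genes in WT and 1.29% in *hvatr.g*. Their log2 fold changes were 2.03 to 3.11 in WT and 2.22 to 2.90 in *hvatr.g*. Likeness to *SMR3* chose these 4, so their rise with zeocin follows from the choice and is a description. None was called between genotypes under either treatment, though under zeocin the ethylene-responsive factor and the glutathione S-transferase had log2 fold changes of 0.57 and 0.50 (edgeR adjusted p = 0.0137 and 0.0323).

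For *FBL17* the nearest profiles were HORVU.MOREX.r3.4HG0392160 (RMS 0.115) and HORVU.MOREX.r3.4HG0395910 (0.176), both annotated as glucan endo-1,3-beta-glucosidases, HORVU.MOREX.r3.4HG0403020, annotated as a Gag-Pol polyprotein (0.150), HORVU.MOREX.r3.3HG0252240, a histone H2B (0.178), and HORVU.MOREX.r3.2HG0132270, a putative carboxyl-terminal peptidase (0.188). The histone gene went from 169 ± 33.5 to 95.3 ± 18.2 CPM in WT and from 140 ± 7.38 to 52.3 ± 8.16 CPM in *hvatr.g*. Like *FBL17*, the 5 were called lower with zeocin in *hvatr.g*, where 2.15% of all tested genes were. Their log2 fold changes there were -1.61 to -1.18. In WT, where 0.902% of all tested genes were called lower, the 5 were not called and ran from -0.89 to -0.35. Since likeness to *FBL17* chose them, this pattern is a description. Being nearest in profile depends on the measure: by Pearson correlation 2 of the 5 nearest were the same for each gene.

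**Figure D5:**
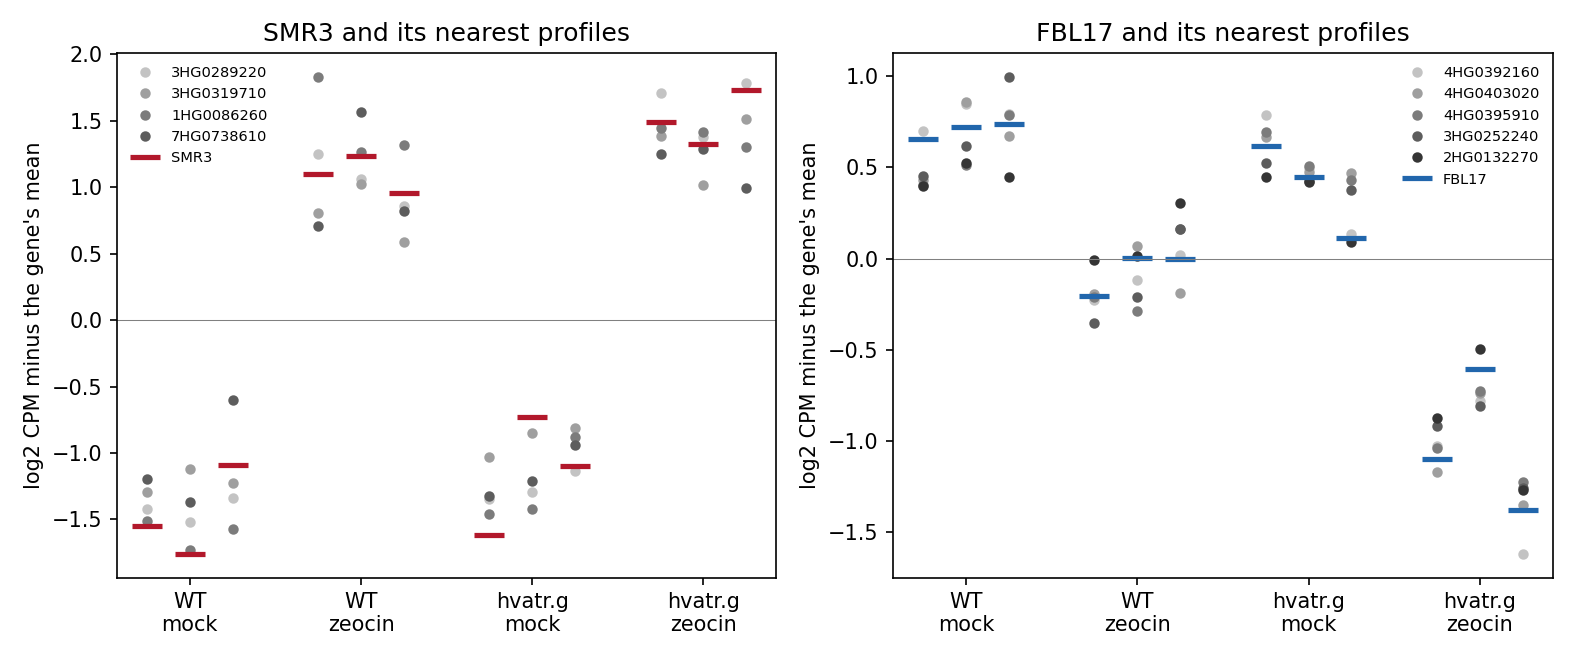
Log2 CPM minus the gene's mean over the 12 libraries for *SMR3* (left, red bars) and *FBL17* (right, blue bars), with 4 and 5 of the nearest profiles (grey points, legend by the end of the identifier), with replicates 1 to 3 from left to right in each group. The neighbours of *SMR3* split into low mock-treated and high zeocin-treated libraries, and those of *FBL17* are lowest in zeocin-treated *hvatr.g*.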

How the data were processed

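Poly(A) RNA of 12 libraries, 3 in each of 4 groups, was sequenced as paired reads. The authors trimmed the reads with Trim Galore, aligned them with the Morex assembly (version 3) by HISAT2 2.1.0, assigned them to gene models with Subread 1.5.2 and deposited the raw counts without normalization. Strand, multi-mapping and read pair settings are not given in the sources used here, so reads shared by similar genes are not separated.

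The table held 83990 rows. Using edgeR 4.0.16 in R 4.3.3, filterByExpr left 26039 rows, TMM factors ran from 0.927 to 1.05, and 1 quasi-likelihood model with a coefficient for each group covered all libraries. SE is the size of the log2 fold change over the square root of F. The log2 CPM used a prior count of 2. Alternatives used DESeq2 1.42.0 and limma 3.58.1, RLE or no scaling, no filter, only the compared groups, replicate blocks, and each library left out. The code was tested on simulated counts. Ratios and plots used Python 3.11.15 (numpy 2.4.6, pandas 2.3.3, matplotlib 3.10.9). No library copied another (chi-square per gene of 16.2 to 85.6 within groups). Counting intervals cover counting error only.

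Both genes and the lists were chosen with earlier results of these data known. Named were both genes, *ATR*, genes of the lists when described, and the 5 nearest profiles of each gene, of which 1 is not reported here. Names and annotations came from the study's text and tables, which were held in part. The reference table matched none of these identifiers, so a planned list by annotation, tissue markers, coordinates, transcript lengths and sequences were not used here. Libraries with the same replicate number deviated together in WT (correlations of 0.31, 0.38 and 0.54 over genes between mock and zeocin treatment), which by the rule applied, over 0.1 for every pair, pairs them there.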

Additional observations from a re-analysis of the deposited data

How the results depend on the processing

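Of 204 values of *SMR3* and *FBL17* under alternatives, 192 kept their direction and side of the thresholds. The log2 fold change of *FBL17* with zeocin in WT ran from -0.80 to -0.71 without 1 library, with an adjusted p of 0.0141 to 0.19 that lost the threshold in 8 of 12 fits. *FBL17* in zeocin-treated *hvatr.g* against WT ran from -1.17 to -0.77. The *SMR3* interaction ran from -0.12 to 0.34, with signs turned without mock-treated WT replicate 3 (-0.12), mock-treated *hvatr.g* replicate 1 (-0.12) or zeocin-treated *hvatr.g* replicate 3 (-0.03). The causes were not tested.

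Genes called higher with zeocin in WT numbered 190 in a fit of the 2 groups alone against 292, and genes called lower ran from 125 to 296 without 1 library against 235, the lowest being 125 where zeocin-treated WT replicate 1 was left out and 150 where replicate 2 of mock-treated WT was. Genes called higher in *hvatr.g* under zeocin ran from 552, without zeocin-treated *hvatr.g* replicate 3, to 1006 against 900. For the interaction, against 0, the calls were 4 higher and 29 lower without a filter, 17 and 95 by DESeq2, 1 higher and 0 lower by limma-voom, and 0 to 1 lower without 1 library.

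With the replicate number as a block within each genotype, the log2 fold change with zeocin in WT was 2.56 for *SMR3* and -0.77 for *FBL17* (edgeR adjusted p = 0.000444 and 0.00675), and in *hvatr.g* 2.67 and -1.42. Neither this block nor a block over all libraries changed a call of either gene. Outside WT the numbers did not pair the libraries, with a lowest correlation of 0.03 in *hvatr.g*, -0.02 under mock and -0.05 under zeocin treatment. Of the 5 nearest profiles, 5 for *SMR3* and 4 for *FBL17* were shared with a prior count of 0.5, and 2 for each with Pearson correlation. The lowest count of either gene, 281, has a 95% Poisson interval of 6.31 to 8.00 CPM around 7.12 CPM, within 1 SD (2.58 CPM) of its group on either side.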
